A study of Homo sapiens with 3 samples.

Results

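The plasminogen activator genes followed here are PLAU, PLAUR, PLAT, SERPINE2 and SERPINB2. They were taken by symbol from the deposited table of counts per gene, in which 5 of 21726 rows carry one of these names. RNA sequencing was made of 3 lines of PC3-Luc, the androgen-independent prostate adenocarcinoma line PC3 from a bone metastasis, carrying luciferase from an MSCV vector. The sh718 and sh720 lines hold short hairpins against CTHRC1, whose product is secreted and is known for promoting migration, and the shCtrl line holds a control hairpin, so all 3 lines share the luciferase vector and a hairpin. Each line is represented by 3 libraries of cells grown for 24 h in 6-well plates, and the comparisons ask which genes changed when CTHRC1 was lowered and whether both hairpin lines did the same. Whether the libraries of 1 line stem from different cultures is not stated, and the p-values therefore cover only how these libraries vary, which may be technical variation. Each hairpin is represented by 1 line, so a hairpin and the history of its line cannot be told apart.

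Plasminogen is a circulating zymogen that is cut to plasmin, a serine protease that dissolves fibrin and degrades matrix proteins. Urokinase (PLAU) makes the cut at the cell surface while bound to its receptor (PLAUR), and tissue-type activator (PLAT) makes it mainly on fibrin and on cells that hold plasminogen. Protease nexin 1 (SERPINE2) is a secreted serpin that inactivates urokinase, tissue-type activator and thrombin, and plasminogen activator inhibitor 2 (SERPINB2) is a largely intracellular serpin that inhibits urokinase. In prostate and other carcinomas, urokinase and its receptor are known for their part in invasion and in spread to bone.

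Library totals lay between 883663 and 1108960 counts, of which 11.96% to 16.4% fell on the mitochondrial genome. CTHRC1 checked the labels: its level was 2.36, 2.02 and 1.06 CPM (counts scaled to a common library size, with TMM factors) in the sh718 libraries and 18.5, 19.8 and 9.70 CPM in the sh720 libraries, against 99.1, 131.9 and 116.6 CPM in the shCtrl libraries. Both hairpin lines were below every shCtrl library, and sh718 was lower than sh720. Of 6 epithelial markers, KRT8, KRT18 and KRT19 stood at 196.4 CPM or more in each line, and CDH1 was nearly absent, at 0.336 CPM in sh718 and 2.72 CPM in sh720, against 1.98 CPM in shCtrl. KRT7 averaged 51.9 CPM in sh718 and 526.3 CPM in sh720, against 312.1 CPM in shCtrl, and EPCAM 14.4 CPM in sh718 and 40.4 CPM in sh720, against 37.8 CPM in shCtrl, and their part in the results was not tested. The prostate markers KLK3, KLK2 and FOLH1 were not among the rows analysed here. Fibroblast, leukocyte and neuroendocrine markers summed to at most 7.40 CPM in a library. The endothelial list summed to 55.4 to 64.6 CPM in sh718, 13.4 to 31.2 CPM in sh720 and 24.8 to 27.0 CPM in shCtrl, with VWF and CDH5, 2 of its 4 genes, not among the rows analysed here and PECAM1 and KDR making up the sum, and its part in the sh718 results was not tested.

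The stretches before the starts of 3 members are shown because they differ in the elements that a promoter of this family can hold. Each is the 250 bases before a RefSeq gene start, 5′ to 3′ on the gene's strand, and capitals mark every match to the 5 motifs searched on both strands, none of which overlapped another here. AP-1 was searched as TGANTCA. The core of the cyclic AMP response element, CRE, was searched as TGACGT. The GC box, which Sp1 factors bind, was searched as GGGCGG. The site of TEAD factors was searched as CATTCC. The box near many start sites was searched as TATAAA. They come from PLAU at chr10:73910882-73911131 (plus strand), PLAUR at chr19:43670170-43670419 (minus strand) and SERPINB2 at chr18:63887455-63887704 (plus strand), all on GRCh38.p14.
PLAU: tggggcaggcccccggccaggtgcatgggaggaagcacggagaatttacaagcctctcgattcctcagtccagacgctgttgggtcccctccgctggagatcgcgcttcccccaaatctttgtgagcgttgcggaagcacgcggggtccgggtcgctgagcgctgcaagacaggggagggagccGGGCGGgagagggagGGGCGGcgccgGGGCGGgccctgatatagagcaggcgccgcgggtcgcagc
PLAUR: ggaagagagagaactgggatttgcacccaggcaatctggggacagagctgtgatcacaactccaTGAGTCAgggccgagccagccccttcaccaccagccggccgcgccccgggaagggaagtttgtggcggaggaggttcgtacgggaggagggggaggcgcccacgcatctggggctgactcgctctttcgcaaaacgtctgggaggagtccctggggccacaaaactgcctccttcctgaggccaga
SERPINB2: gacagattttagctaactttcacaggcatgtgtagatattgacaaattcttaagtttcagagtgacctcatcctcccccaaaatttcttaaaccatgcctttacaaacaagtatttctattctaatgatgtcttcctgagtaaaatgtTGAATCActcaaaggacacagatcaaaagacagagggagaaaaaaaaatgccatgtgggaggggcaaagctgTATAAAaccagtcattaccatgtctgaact

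The PLAU stretch held 3 GC boxes and none of the other motifs, with a GC content of 68.8%. The PLAUR stretch held 1 AP-1 match, which begins 186 bases before the start, in sequence of 63.2% GC. The SERPINB2 stretch, at 37.2% GC, held 1 AP-1 match 102 bases and 1 TATA match 30 bases before the start. Among 35116 RefSeq starts, 6.57% had an AP-1 match in the same window, 42.6% a GC box, 10.7% a TATA match, 7.10% a CRE core and 11.9% a TEAD match. A match is a run of letters, and nothing in these data measured binding. RefSeq lists 2 starts each for PLAU and SERPINE2, and the PLAU start shown is the one that 2 of its 3 coding transcripts in GENCODE v29 use. The PLAUR start shown is used by 2 of its 11 coding transcripts, and the SERPINB2 start by 2 of its 5. Of the SERPINE2 starts, the one that 1 of its 7 coding transcripts uses had 1 GC box before it, and the other had 2, with no other motif.

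Of the 5 genes, 4 had enough counts for the test across the table, which edgeR's quasi-likelihood test ran on 9556 genes with Benjamini-Hochberg adjustment over all of them, a gene being called at an adjusted p under 0.05. SERPINB2, with 30 counts over 9 libraries, did not pass the count minimum. None of the 4 was called in sh718 against shCtrl by edgeR, where 20.4% of all tested genes were called, and 0 of the 4 had an unadjusted p under 0.05 or a DESeq2 call. In sh720 against shCtrl 3 of the 4 were called, PLAT and SERPINE2 higher and PLAU lower, beside 6.85% of all tested genes (3.43% higher and 3.42% lower). The same 3 differed between sh718 and sh720, where 25.3% of all tested genes were called, 12.3% higher and 13% lower in sh718. The members were not drawn at random, so these shares describe the family and do not test it.

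**Figure D1:**
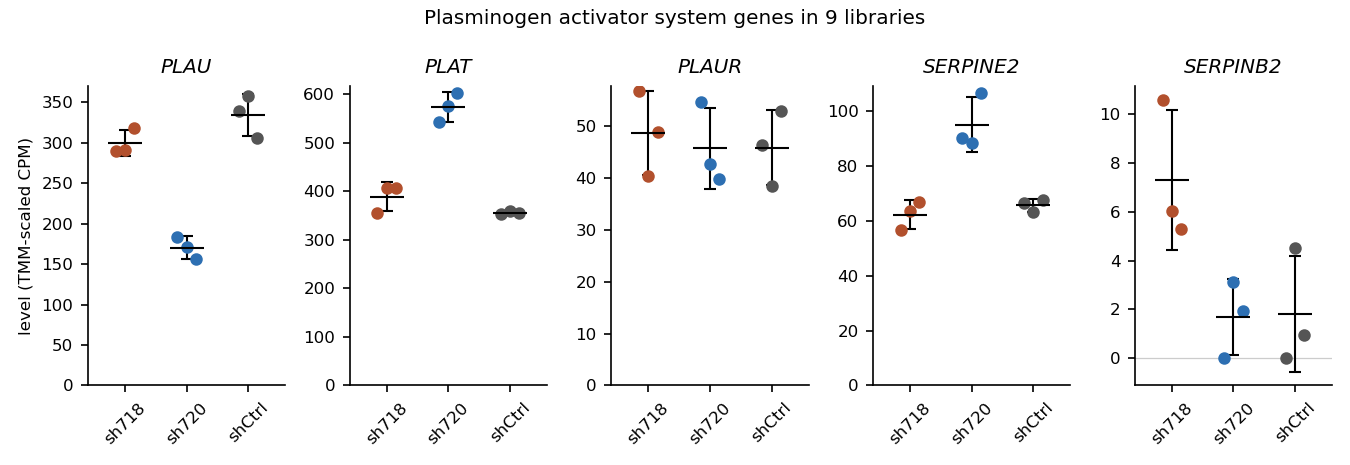
Level of each gene in TMM-scaled CPM (linear axis) in each of the 9 libraries, by line, with points for libraries and bars for the mean ± SD of 3 libraries. The sh720 libraries stand below the others for PLAU and above them for PLAT and SERPINE2, PLAUR overlaps in all lines, and SERPINB2 is above the others in sh718 at under 11 CPM.

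PLAU (ENSG00000122861, chromosome 10, 73909177 to 73917497, plus strand in GENCODE v29 on GRCh38) encodes urokinase, the receptor-bound activator. Its level was 289.9, 291.2 and 317.9 CPM in the sh718 libraries and 183.9, 171.6 and 156.1 CPM in the sh720 libraries, against 338.9, 357.5 and 306.2 CPM in the shCtrl libraries. The sh720 libraries lay below all of the others, and sh718 library 3 lay above the lowest shCtrl library. PLAU fell in sh720 to 170.5 ± 13.9 CPM, against 334.2 ± 26.0 CPM in shCtrl (SD, n = 3 libraries each), a log2 change of -0.97 (SE 0.10, edgeR adjusted p 1.48e-12), or 51.1% of the shCtrl level. In these bulk libraries, fewer cells with the message and less of it per cell cannot be told apart. In sh718 the mean was 299.7 ± 15.8 CPM, with a log2 change of -0.15 against shCtrl (95% interval -0.33 to 0.02, edgeR adjusted p 0.233). The lines differed from each other, sh718 being higher than sh720 by 0.81 on the log2 scale (SE 0.10, edgeR adjusted p 2.83e-10). On the opposite strand C10orf55 overlaps the exons of PLAU and had 31 counts over all libraries, and with no strand setting given, reads of the pair cannot be told apart.

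PLAT (ENSG00000104368, chromosome 8, 42175233 to 42207724, minus strand) encodes tissue-type plasminogen activator, the activator used as a clot-dissolving drug. Its level was 354.7, 407.1 and 405.9 CPM in the sh718 libraries and 542.5, 576.0 and 603.1 CPM in the sh720 libraries, against 352.4, 358.6 and 354.3 CPM in the shCtrl libraries. All sh720 libraries were above every other library, while sh718 library 1 lay within the shCtrl range. PLAT rose in sh720 to 573.8 ± 30.4 CPM, against 355.1 ± 3.15 CPM in shCtrl (SD, n = 3 libraries each), a log2 change of 0.69 (SE 0.08, edgeR adjusted p 1.67e-10). The sh718 mean was 389.2 ± 29.9 CPM, a log2 change of 0.14 (95% interval -0.02 to 0.29, edgeR adjusted p 0.253). Set directly against sh720, sh718 was lower by a log2 difference of -0.56 (SE 0.08, edgeR adjusted p 2.38e-08). Both activators thus moved in sh720, in opposite directions.

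PLAUR (ENSG00000011422, chromosome 19, 43646095 to 43670547, minus strand) encodes the urokinase receptor, a protein tethered to the membrane by a lipid anchor. Its level was 56.6, 40.3 and 48.8 CPM in the sh718 libraries and 54.5, 42.6 and 39.8 CPM in the sh720 libraries, against 46.2, 38.3 and 52.7 CPM in the shCtrl libraries. The libraries of all 3 lines overlapped. The log2 change was 0.06 in sh718 (95% interval -0.30 to 0.42, edgeR adjusted p 0.861) and -0.02 in sh720 (95% interval -0.38 to 0.34, edgeR adjusted p 0.969). With 134, 135 and 132 counts summed over the sh718, sh720 and shCtrl libraries, changes inside these intervals are not excluded.

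SERPINE2 (ENSG00000135919, chromosome 2, 223975112 to 224039319, minus strand) encodes protease nexin 1, the secreted inhibitor in the family. Its level was 56.6, 63.5 and 66.8 CPM in the sh718 libraries and 90.4, 88.4 and 106.7 CPM in the sh720 libraries, against 66.4, 63.2 and 67.5 CPM in the shCtrl libraries. The sh720 libraries were all above the rest, and those of sh718 overlapped with shCtrl. SERPINE2 rose in sh720 to 95.2 ± 10.02 CPM, against 65.7 ± 2.28 CPM in shCtrl (SD, n = 3 libraries each), a log2 change of 0.53 (SE 0.14, edgeR adjusted p 0.00767). That call was lost without sh720 library 3, where the log2 change was 0.44 (edgeR adjusted p 0.0976), and with DESeq2, where it was 0.53 (adjusted p 0.0723). In sh718 the log2 change was -0.08 (95% interval -0.38 to 0.23, edgeR adjusted p 0.790), and sh718 was lower than sh720 by a log2 difference of -0.61 (SE 0.14, edgeR adjusted p 6.21e-04).

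SERPINB2 (ENSG00000197632, chromosome 18, 63871692 to 63903890, plus strand) encodes plasminogen activator inhibitor 2, which was near the limit of detection. It had 9, 6 and 5 counts in the sh718 libraries and 0, 3 and 2 counts in the sh720 libraries, against 0, 4 and 1 counts in the shCtrl libraries. Each sh718 library was above all of the others, by 1 count at the closest. The ratio of summed counts, 20 in sh718 against 5 in shCtrl, was 4.10 after scaling (exact 95% interval 1.49 to 13.99, counting error only), and the ratio of sh720 to shCtrl, with 5 counts in each, was 0.963 (0.222 to 4.18). Molecular identifiers are not mentioned, so amplified copies may be counted more than once, which these intervals do not cover. When all 21726 genes were tested without the count minimum, SERPINB2 was called higher in sh718 than in shCtrl (log2 change 1.95, SE 0.66, edgeR adjusted p 0.0416), as were 3.64% of those genes. In sh720 against shCtrl, where 1.27% of those genes were called higher, it lay at -0.06 (SE 0.90) and was not called. It was also called higher in sh718 than in sh720 (log2 difference 2.01, SE 0.66, edgeR adjusted p 0.0264), as were 5% of those genes.

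**Figure D2:**
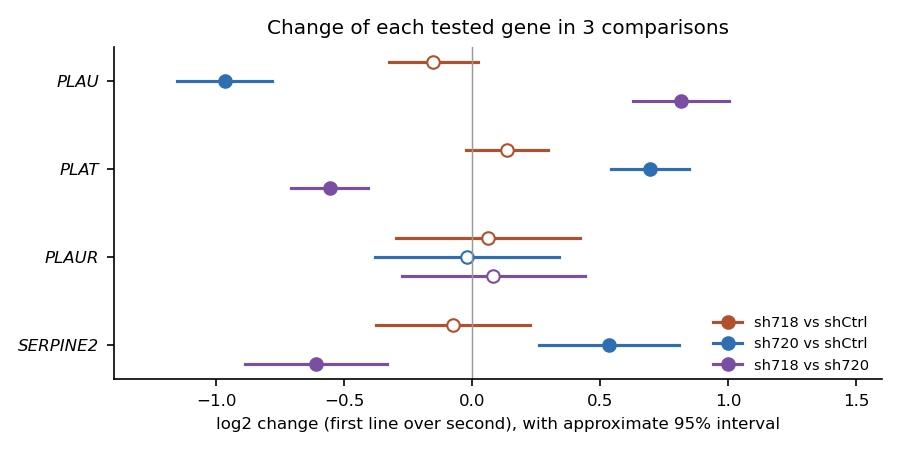
Fitted log2 change of the 4 tested genes in sh718 against shCtrl, sh720 against shCtrl and sh718 against sh720, with bars for the 95% interval. Filled points were called at an edgeR adjusted p under 0.05, which holds for PLAU, PLAT and SERPINE2 in the comparisons that involve sh720.

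Per length, the family ran over a wide range of levels, computed as TMM-scaled CPM per kilobase of annotated exon. This scale assumes reads along the whole transcript, and the kind of library is not stated. The length joins the exons of all annotated transcripts of a gene: 2950 bases for PLAU, 6618 for PLAT, 4457 for PLAUR and 8891 for SERPINE2. Which transcripts these cells make was not tested, so the order of genes on this scale depends on the annotation. In sh718 the levels were 101.6 ± 5.37 for PLAU, 58.8 ± 4.52 for PLAT, 10.9 ± 1.82 for PLAUR, 7.004 ± 0.586 for SERPINE2 and 2.66 ± 1.05 CPM per kilobase for SERPINB2 (SD, n = 3 libraries). In sh720 they were 57.8 ± 4.72 for PLAU, 86.7 ± 4.59 for PLAT, 10.2 ± 1.75 for PLAUR, 10.7 ± 1.13 for SERPINE2 and 0.614 ± 0.573 CPM per kilobase for SERPINB2. In shCtrl they were 113.3 ± 8.80 for PLAU, 53.7 ± 0.476 for PLAT, 10.3 ± 1.62 for PLAUR, 7.39 ± 0.257 for SERPINE2 and 0.659 ± 0.867 CPM per kilobase for SERPINB2. On this scale PLAU lay above PLAT in sh718 and shCtrl and PLAT above PLAU in sh720, with no overlap between the libraries of the pair in any line. PLAUR lay above SERPINE2 per kilobase in every sh718 and shCtrl library, and the 2 genes overlapped in sh720. Both orders rest on the division by length, because in CPM without it the mean of PLAT was above that of PLAU, and that of SERPINE2 above that of PLAUR, in all 3 lines. Among the 9544 tested genes with a length, PLAU stood at the 95.3rd percentile in sh718, the 91.5th in sh720 and the 95.8th in shCtrl, and PLAT at the 91.5th, 94.4th and 90.7th.

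The balance between members was followed as log2 ratios of CPM within each library, with 0.5 CPM added to both genes. PLAT over PLAU had a mean log2 ratio of 0.38 ± 0.10 in sh718 and 1.75 ± 0.19 in sh720, against 0.09 ± 0.11 in shCtrl (SD, n = 3 libraries each). The differences from shCtrl were 0.28 in sh718 and 1.66 in sh720, and the libraries of the 3 lines did not overlap. PLAU over SERPINE2, the secreted activator set against its secreted inhibitor, had a mean log2 ratio of 2.26 ± 0.08 in sh718 and 0.84 ± 0.26 in sh720, against 2.34 ± 0.16 in shCtrl, with sh720 below the others and sh718 overlapping with shCtrl. PLAU over PLAUR, the ligand against its receptor, averaged 2.63 ± 0.25 in sh718 and 1.90 ± 0.14 in sh720, against 2.86 ± 0.34 in shCtrl, and again sh720 lay below while sh718 overlapped with shCtrl. PLAT over SERPINE2 stayed closer together, at 2.64 ± 0.04 in sh718 and 2.59 ± 0.10 in sh720, against 2.43 ± 0.06 in shCtrl, with sh718 above shCtrl without overlap. In exact two-sided permutation tests over libraries, each ratio whose lines did not overlap gave p = 0.1, the smallest value that 3 against 3 allows, and an adjusted p of 0.15 over the 12 ratio comparisons. The others gave exact p from 0.2 to 0.7.

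**Figure D3:**
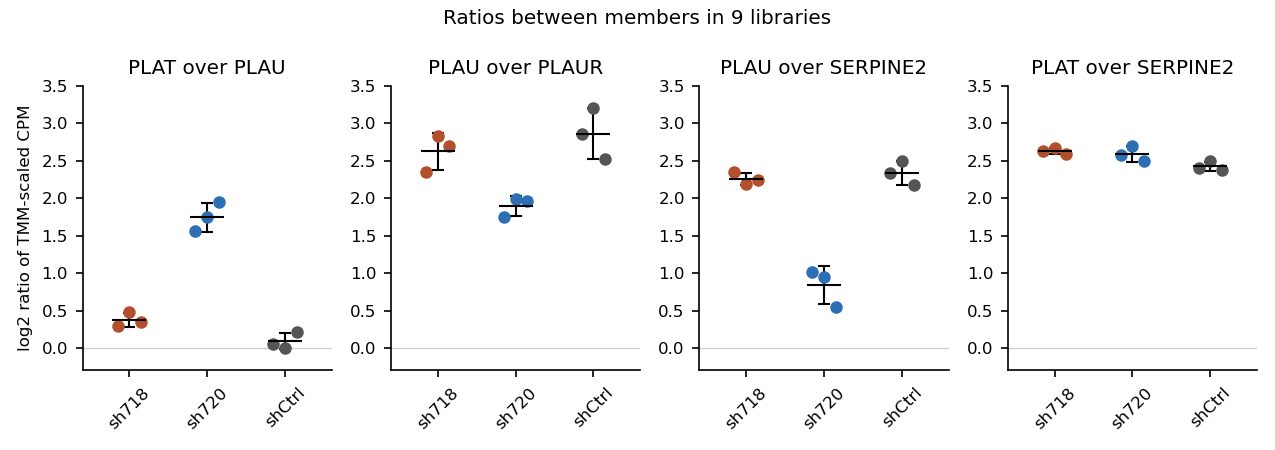
Log2 ratio of TMM-scaled CPM between pairs of members in each library, by line, with points for libraries and bars for the mean ± SD of 3 libraries. In sh720 the ratio of PLAT over PLAU lies between 1.56 and 1.95, above sh718 and shCtrl, and PLAU over SERPINE2 lies below both.

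PLAU lies in a part of chromosome 10 where most tested genes were lower in both hairpin lines. Within 5 Mb of its start there were 53 other tested genes, with a median log2 change of -0.53 in sh718 and -0.49 in sh720 against shCtrl. Of these, 29 (54.7%) were called lower and 2 higher in sh718, and 31 (58.5%) were called lower and 2 higher in sh720, beside 10.8% and 3.42% of all tested genes called lower. Both comparisons use the same shCtrl libraries. In single libraries, the median of the 53 genes relative to the shCtrl mean was -0.54, -0.42 and -0.49 in sh718 and -0.45, -0.51 and -0.50 in sh720, against -0.03, 0.03 and 0.01 in shCtrl. Between sh718 and sh720 the median difference of these genes was -0.08, with 12 (22.6%) called higher and 11 (20.8%) called lower in sh718. Over all tested genes, 12.3% were called higher and 13% lower in that comparison.

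PLAU itself lay within the spread of its neighbours in sh718 and near their lower end in sh720. In sh718 it was inside their interquartile range (-0.75 to -0.13), above the median of the 53 genes by 0.37 on the log2 scale, and 38 of them had a lower log2 change. In sh720 it lay below the median, the difference being -0.48, and 1 of the 53 had a lower log2 change, SAR1A at -1.02, named after its value was seen. Relative to the median of its neighbours, PLAU was at 0.34, 0.22 and 0.42 in the sh718 libraries and at -0.40, -0.44 and -0.59 in the sh720 libraries, against 0.05, 0.07 and -0.13 in the shCtrl libraries. The sh718 values were above, and the sh720 values below, every shCtrl value. What part of the PLAU change goes with its neighbourhood was not tested.

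**Figure D4:**
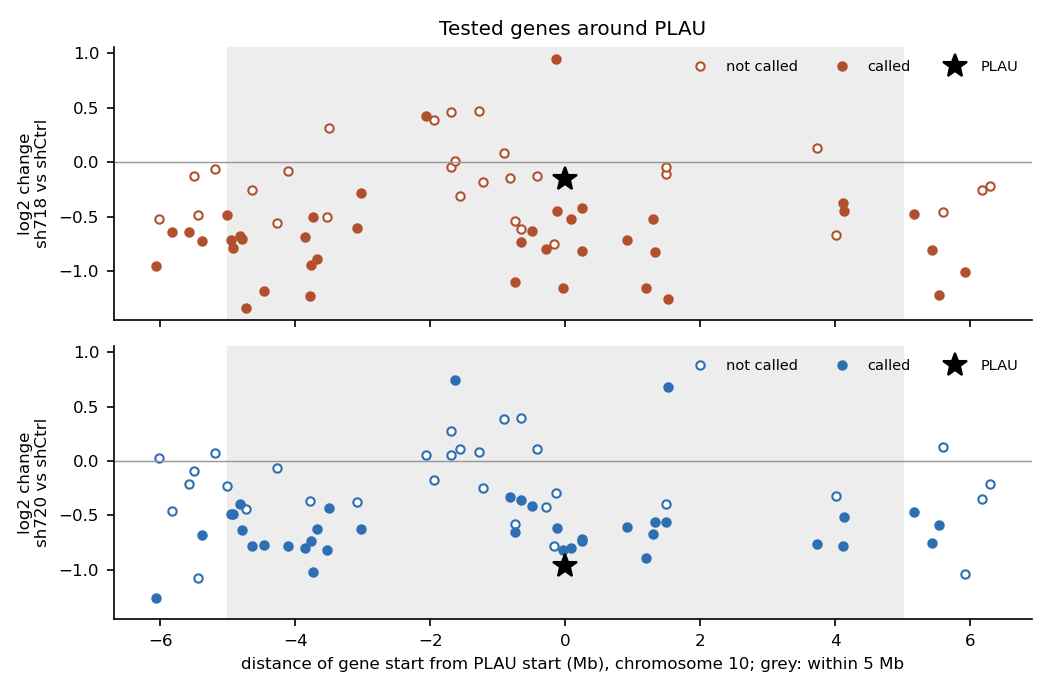
Log2 change against shCtrl of tested genes on chromosome 10 by the distance of their start from that of PLAU in Mb, for sh718 (above) and sh720 (below), with filled points for called genes and a star for PLAU. Of the 53 genes within 5 Mb (grey), 29 in sh718 and 31 in sh720 were called lower, and PLAU is above most of them in sh718 and below nearly all in sh720.

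The nearest tested genes on each side were lower in both lines. CAMK2G, a calmodulin-dependent kinase gene that starts 34.6 kb away, changed by -1.15 in sh718 and -0.82 in sh720 on the log2 scale (edgeR adjusted p 8.77e-10 and 4.19e-06). CHCHD1, which encodes a mitochondrial ribosomal protein, changed by -0.45 and -0.62 (edgeR adjusted p 5.04e-06 and 6.19e-09). On the other side VCL, the gene of the adhesion linker vinculin, changed by -0.52 and -0.80 (edgeR adjusted p 2.14e-07 and 1.35e-12), and AP3M1, an adaptor subunit gene, by -0.42 and -0.72 (edgeR adjusted p 0.00252 and 9.44e-07), the sh718 call being lost without sh718 library 3 (adjusted p 0.0514). These 4 were called in both lines, and VCL and AP3M1 were also higher in sh718 than in sh720, by 0.28 and 0.30 on the log2 scale (edgeR adjusted p 0.00689 and 0.0420). The VCL difference was lost without TMM scaling (adjusted p 0.0604) and without sh718 library 3 (0.0611) or sh720 library 1 (0.0557). The AP3M1 difference was lost with DESeq2 (adjusted p 0.149). With edgeR it was lost without TMM scaling (adjusted p 0.142) and without the count minimum (0.081). It was also lost without sh718 library 1 or 2 or any 1 of the sh720 libraries (0.0661 to 0.208). PLAU was called in sh720, and its difference between the lines was 0.81.

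Around the other members, fewer neighbours were called. Of 29 tested genes within 5 Mb of PLAT, 1 was called in each comparison with shCtrl, lower in both cases, and their median log2 change was -0.05 in sh718 and -0.04 in sh720. The PLAT change in sh720 was above that of all 29. Its neighbours AP3M2 (-0.49 and -0.35) and IKBKB (0.45 and 0.02) were not called in sh718 or sh720. The 21 tested genes within 5 Mb of SERPINE2 had median log2 changes of 0.15 in sh718 and 0.03 in sh720, and SERPINE2 lay above 19 of them in sh720. Its neighbours MRPL44 (-0.80 and 0.32) and CUL3 (0.40 and 0.03) were not called. Near PLAUR, 15 of 102 genes were called higher and 5 lower in sh718, with a median of 0.07, and 1 higher and 4 lower in sh720, with a median of -0.08. That is near the 20.4% and 6.85% of all tested genes called in sh718 and sh720. The genes next to PLAUR were ZNF428, which rose by 1.07 in sh718 and lay at -0.24 in sh720, and SMG9, which rose by 0.80 in sh718, a call lost without shCtrl library 3 (edgeR adjusted p 0.0983) and with DESeq2 (adjusted p 0.0900), and lay at 0.44 in sh720. SERPINB2 sits in a cluster of clade B serpins between SERPINB7 (0.08 and 0.03) and SERPINB8 (0.47 and 0.47), neither of them called. The exons of SERPINB10 overlap those of SERPINB2 on the same strand, with 2 counts in all.

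Genes with the most similar profiles over the 9 libraries were found by the root mean square difference in centred log2 CPM among 6590 genes of at least 20 CPM. They were picked by their values in these same libraries, so their changes and p-values follow from that choice and are not separate support. For PLAU they were CD24 (0.13), HK1 (0.16) and MANF (0.16), against a median of 0.50 over all genes compared. HK1, the gene of hexokinase 1, starts within 5 Mb of PLAU. CD24, which encodes a small surface glycoprotein, changed by -0.77 in sh720 (edgeR adjusted p 2.63e-05) and lay at -0.01 in sh718. For PLAT they were PSPH (0.09), ETV1 (0.10) and RBCK1 (0.10), against a median of 0.39. PSPH shares sequence with the pseudogene PSPHP1, which had 9, 5 and 12 counts summed over the sh718, sh720 and shCtrl libraries, so its value is uncertain. For SERPINE2 they were POLD3 (0.08), ETV1 (0.09) and PMEPA1 (0.10), against a median of 0.37. ETV1, an ETS-family transcription factor gene, was near both and rose by 0.50 in sh720 (edgeR adjusted p 0.00945), a call lost without sh720 library 3 (0.0671) or shCtrl library 3 (0.0527) and with DESeq2 (0.0764). For PLAUR they were PRKAR1B (0.09), MCM6 (0.10) and NIPSNAP1 (0.10), against a median of 0.31, and none of them was called.

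Among genes whose products hold plasminogen at the cell surface, ENO1, ANXA2 and S100A10 were higher in both hairpin lines, which share the shCtrl libraries. The list has 7 tested genes, of which 3 were called higher and 1 lower in sh718, and 3 higher and 0 lower in sh720, with medians of 0.22 and 0.20, beside a median of 0.0024 and 0.0015 and called shares of 9.56% and 3.43% higher over all tested genes. PLG, which encodes plasminogen itself, was not analysed here. S100A10 encodes p11, a plasminogen receptor that pairs with annexin A2, and its level was 1482, 1370 and 1371 CPM in the sh718 libraries and 984.2, 957.6 and 951.1 CPM in the sh720 libraries, against 881.7, 780.3 and 795.6 CPM in the shCtrl libraries. No library of a hairpin line overlapped with shCtrl, and S100A10 rose by 0.78 in sh718 and 0.24 in sh720 on the log2 scale (edgeR adjusted p 6.96e-16 and 0.0143). The sh720 call was lost without sh720 library 1, shCtrl library 2 or shCtrl library 3 (edgeR adjusted p 0.0666, 0.108 and 0.0904).

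ANXA2, the partner of p11 and itself a binding site for tissue-type activator, stood at 1739, 1818 and 1822 CPM in sh718 and 1876, 1872 and 1832 CPM in sh720, against 1540, 1620 and 1490 CPM in shCtrl. It rose by 0.21 in sh718 and 0.26 in sh720 on the log2 scale (edgeR adjusted p 0.00642 and 0.00126), the first lost without shCtrl library 3 (adjusted p 0.0561). ENO1, a glycolytic enzyme that also binds plasminogen at the cell surface, rose by 0.48 and 0.30 (edgeR adjusted p 6.77e-10 and 1.41e-04). PLGRKT, a membrane-spanning plasminogen receptor, was lower in sh718 by a log2 change of -0.93 (edgeR adjusted p 0.0250), a call lost without sh718 library 1, shCtrl library 1 or shCtrl library 2 (0.106, 0.0948 and 0.0815) and with DESeq2 (0.149). It lay at -0.70 in sh720 (edgeR adjusted p 0.165).

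**Figure D5:**
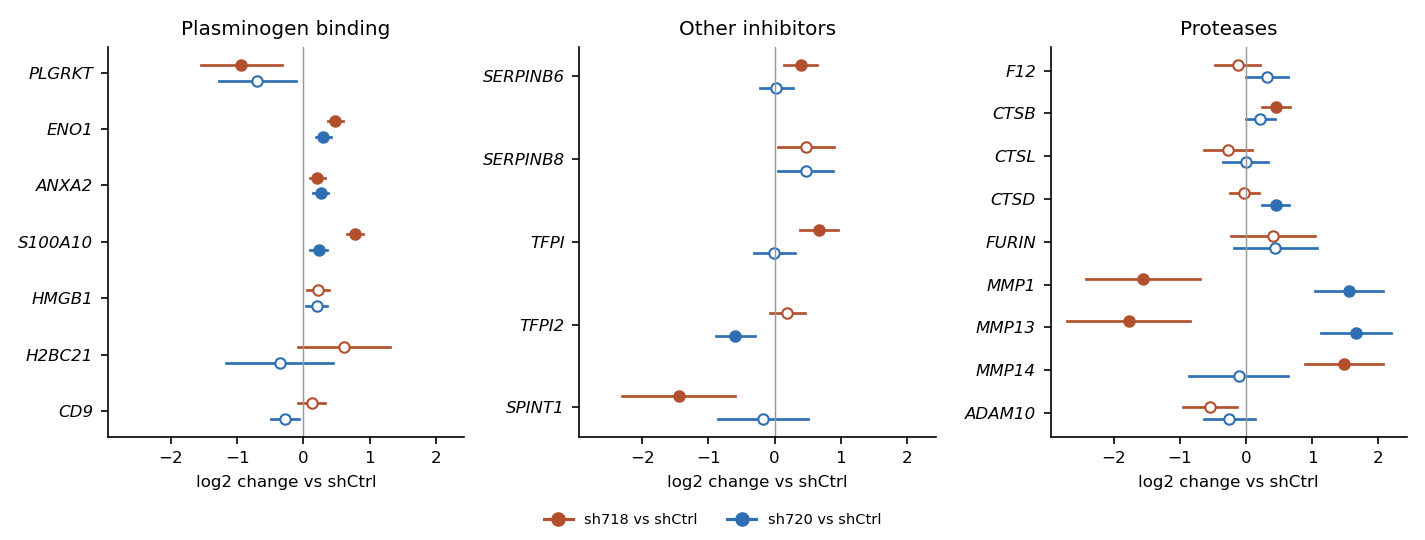
Log2 change against shCtrl with bars for the 95% interval for genes from 3 lists around the family, in sh718 and sh720, filled where called by edgeR. ENO1, ANXA2 and S100A10 are higher in both lines, TFPI is called higher in sh718 and TFPI2 lower in sh720, and MMP1 and MMP13 lie on opposite sides of 0.

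Among other inhibitors of plasmin and its activators, TFPI rose in sh718 and TFPI2 fell in sh720. Of 6 tested genes of that list, 3 rose and 1 fell in sh718 (median 0.43), and none rose and 1 fell in sh720 (median 0.01). Over all tested genes, the called shares were 9.56% higher and 10.8% lower for sh718, with 3.43% higher and 3.42% lower for sh720. TFPI, a tissue factor pathway inhibitor, rose by 0.67 in sh718 (edgeR adjusted p 2.65e-04), and TFPI2, a relative that inhibits plasmin, fell by 0.59 in sh720 (adjusted p 0.00512). SERPINB6 (0.39) and SPINT1 (-1.45), named after their values were seen, were also called in sh718, and DESeq2 called neither (adjusted p 0.106 and 0.0916). The SERPINB6 call was also lost without sh718 library 2 (edgeR adjusted p 0.0644), shCtrl library 1 (0.0675) or shCtrl library 2 (0.0929).

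Other serpins moved in part. Of 5 tested clade B serpins, 2 rose and 1 fell in sh718 (median 0.39), and 1 rose in sh720 (median 0.03), against 9.56% higher and 10.8% lower in sh718 and 3.43% higher in sh720 over all tested genes. SERPINB1, an inhibitor of neutrophil proteases, rose by 0.70 and 0.84 (edgeR adjusted p 0.0245 and 0.0104), the first lost without sh718 library 3, shCtrl library 2 or shCtrl library 3 (0.115, 0.0559 and 0.148) and with DESeq2 (0.139), and the second without shCtrl library 3 (0.103) and, at the threshold of 0.05 itself, without sh720 library 2. SERPINB5, which encodes maspin, changed by -0.76 in sh718 (edgeR adjusted p 0.00191). Of 4 tested genes among other secreted serpins, a list that holds SERPINE2, 2 rose and 1 fell in sh718 (median 1.02), and SERPINE2 alone rose in sh720 (median 0.14), to be read beside the same shares. SERPIND1, the heparin cofactor gene, rose by 2.11 in sh718 (edgeR adjusted p 8.62e-12).

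Partners of the urokinase receptor, and receptors that take up its complexes, included integrins that rose in sh718. Of 15 tested genes, 7 rose and 3 fell in sh718 (median 0.16), and none rose and 2 fell in sh720 (median -0.14), where all tested genes gave 9.56% higher and 10.8% lower in sh718, and 3.43% higher and 3.42% lower in sh720. CAV1, the gene of caveolin 1, which associates with the urokinase receptor, changed by -0.41 and -0.43 (edgeR adjusted p 3.44e-05 and 3.06e-05). The integrin genes ITGB1 and ITGA3, whose protein dimer binds the urokinase receptor, rose by 0.68 and 0.54 in sh718 (edgeR adjusted p 9.83e-08 and 2.23e-06) and lay at 0.19 and -0.15 in sh720, uncalled.

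Proteases that cleave pro-urokinase or act beside plasmin included a pair of collagenases that went opposite ways. MMP1 stood at 5.89, 4.03 and 4.24 CPM in sh718 and 50.3, 41.6 and 33.0 CPM in sh720, against 21.4, 9.02 and 12.03 CPM in shCtrl. MMP13 stood at 7.07, 2.02 and 2.12 CPM in sh718 and 41.1, 47.8 and 32 CPM in sh720, against 10.1, 15.8 and 12.03 CPM in shCtrl. Both were below every shCtrl library in sh718 and above every one in sh720. MMP1 changed by -1.56 and 1.56 (edgeR adjusted p 0.00639 and 9.85e-06), the first lost without shCtrl library 1 (0.0980), and MMP13 by -1.77 and 1.66 (adjusted p 0.00397 and 4.35e-06). DESeq2 gave no adjusted p for either gene in sh720. MMP14, a membrane-bound collagenase gene, rose by 1.48 in sh718 and CTSB, the gene of cathepsin B, which can cleave pro-urokinase, by 0.46 (edgeR adjusted p 1.00e-04 and 0.00122). Of 9 tested genes, 2 rose and 2 fell in sh718 (median -0.13), and 3 rose and none fell in sh720 (median 0.32), set against 9.56% and 10.8% of all tested genes in sh718 and 3.43% and 3.42% in sh720. ST14 had 2, 3 and 3 counts summed over the sh718, sh720 and shCtrl libraries, and HPN and KLKB1 were not analysed here.

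Substrates of plasmin and urokinase moved in both directions. Of 15 tested substrates, 5 rose and 3 fell in sh718 (median 0.14), and 1 rose and 3 fell in sh720 (median -0.11). All tested genes were called in 20.4% of cases in sh718 and 6.85% in sh720. FN1, the gene of fibronectin, a matrix protein that plasmin cleaves, changed by -1.01 and -0.74 (edgeR adjusted p 3.73e-05 and 0.00359), the second lost without shCtrl library 3 (0.0702) and with DESeq2 (0.0513). CDCP1, a membrane protein that plasmin cleaves, rose by 0.92 in sh718 and F2RL1, a protease-activated receptor gene, changed by -1.52 there (edgeR adjusted p 1.02e-14 and 2.17e-14). F2R, the thrombin receptor gene, rose by 0.67 in sh720 and the laminin gene LAMB3 changed by -0.53 there (edgeR adjusted p 6.21e-05 and 0.00107). LTBP1, which holds latent TGF-beta in the matrix, was called in opposite directions, at 0.28 in sh718 and -0.47 in sh720 (edgeR adjusted p 0.0429 and 0.00183). The first of these was lost with DESeq2 (adjusted p 0.174). With edgeR it was lost without TMM scaling (adjusted p 0.0815), without the count minimum (0.0833) and with edgeR's own count filter (0.051). It was also lost without sh718 library 3 (0.223), sh720 library 2 (0.0560), shCtrl library 1 (0.187) or shCtrl library 2 (0.129). The second was lost without shCtrl library 3 (0.0510).

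The list of AP-1, ETS and NF-kB factor genes also holds SP1, SP3 and CREB1. Of its 20 tested genes, 2 rose and none fell in sh718 (median -0.0025), and 1 rose and none fell in sh720 (median 0.14). These counts are near the shares of all tested genes that rose, 9.56% in sh718 and 3.43% in sh720. JUN, an AP-1 subunit, rose by 1.13 in sh718 (edgeR adjusted p 5.68e-12) and lay at 0.16 in sh720, and ELF3 rose by 0.84 in sh718 (adjusted p 4.57e-04). ETV5 rose by 0.41 in sh720 (edgeR adjusted p 0.0223), a call lost without sh720 library 1 or 2 or shCtrl library 1 or 2 (0.0716 to 0.147) and with DESeq2 (0.0979). FOSL1, an AP-1 subunit gene named after its values were seen, stood at 688.7 CPM in sh718 and 664.1 CPM in sh720, against 666.3 CPM in shCtrl, and was not called.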

How the data were processed

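Gene expression was measured in 3 lines with 3 libraries each, as single reads of 75 bp, with 3000000 reads stated per sample. The deposited table gives whole-number counts for each Ensembl gene, unnormalized. Trim Galore and GRCh38 were used, per the submitters' processing notes, while no aligner, counter, strandedness or gene annotation version is named (not given in the sources used here). GEO lists 1 sample per line, and the 3 numbered columns under each name were treated as 3 libraries.

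All 9 libraries entered 1 quasi-likelihood model of edgeR 4.0.16 (glmQLFit and glmQLFTest after TMM scaling, R 4.3.3). It covered 9556 genes with a mean of at least 20 counts per line, the libraries of a line being added up. Adjusted p-values are Benjamini-Hochberg over those genes, and called means under 0.05. The SE is the log2 change divided by the root of its F statistic, and intervals are normal 95% intervals from it. The common biological coefficient of variation was 5.89%. Intervals of summed counts are exact and cover counting error only. Positions came from GENCODE v29. Permutation tests used SciPy 1.17.1. Alternatives were DESeq2 1.42.0, other scalings and filters, a replicate block and leaving out each library. The fit was tested on simulated data.

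The members and gene lists were chosen with earlier results of these data known. The genes named were the members, CTHRC1, list genes called in the same direction in both hairpin lines (at most 4 a list) or else the 2 with the smallest adjusted p per comparison, the nearest tested genes beside each member, and the 3 most similar genes. Genes called in opposite directions were named after their values were seen. Some genes of these lists are not reported here.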

Additional observations from a re-analysis of the deposited data

Results flagged for a closer look

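The change of 3 members differed between the hairpin lines by the direct edgeR test of sh718 against sh720. PLAU was higher in sh718 than in sh720 by a log2 difference of 0.81 (adjusted p 2.83e-10), with every sh718 library above every sh720 library. PLAT was lower in sh718 than in sh720 by a log2 difference of -0.56 (adjusted p 2.38e-08), and SERPINE2 by -0.61 (adjusted p 6.21e-04), again without overlap between the libraries. The CTHRC1 level was lower in sh718 than in sh720, with a log2 difference of -3.05.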

How the results depend on the processing

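Of 204 values of the tested members under other settings, 202 kept their direction of call and their side of the threshold. The exceptions were SERPINE2 in sh720 against shCtrl with DESeq2 (log2 change 0.53, adjusted p 0.0723) and without sh720 library 3 (0.44, 0.0976). Its log2 change ran from 0.44 to 0.58 when 1 library was left out, that of PLAU in sh720 from -1.03 to -0.91 and that of PLAT in sh720 from 0.65 to 0.73. DESeq2 called 1007 genes in sh718 against shCtrl, 307 in sh720 against shCtrl and 1293 in sh718 against sh720, where edgeR called 1947, 655 and 2419, and the cause was not tested. Without TMM scaling, 422 genes were called higher and 256 lower in sh720 against shCtrl (328 and 327 with it), and 859 and 1551 in sh718 against sh720 (1173 and 1246 with it). The median change of genes near PLAU was -0.45 in sh718, -0.40 in sh720 within 2.5 Mb. With 1 library left out it ran from -0.57 to -0.50 in sh718, from -0.54 to -0.49 in sh720 and from -0.17 (without sh720 library 2) to -0.041 (without sh718 library 1) in sh718 against sh720, being -0.055 without sh720 library 1. Same-numbered libraries did not vary together (correlations of deviations from -0.01 to 0.02), so the numbers were taken as names, and with a replicate block edgeR called 1977, 680 and 2425 genes and the PLAU change in sh720 was -0.97. With 30 counts in all, SERPINB2 lies near the limit of counting.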
